A study of Homo sapiens with 8 samples.

Results

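The genes described here repair broken and crosslinked DNA: 35 genes of homologous recombination, the Fanconi anemia pathway and, for 2 of them, mismatch repair. They were chosen by gene symbol, from a list of genes of these pathways, with earlier results of these data known. They are 35 of the 58735 genes in the count table, and all 35 were among the 14621 genes with enough reads to be tested. RNA-seq read counts were available for 8 libraries of cells labelled A549, a human non-small cell lung cancer line. Of these, 4 carried a lentiviral empty vector (EV group) and 4 a lentivirus for overexpression of KRT19, a type I keratin of simple epithelia (KRT19 group). By the study's methods the insert was Flag-tagged KRT19 and transduced cells were selected with puromycin into stable lines, so each group stands for transduced, selected cells, and no untransduced library was analysed here. The comparison asked which transcripts differ when KRT19 is overexpressed, a setting in which the study examined the cell cycle and senescence.

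Homologous recombination mends a double-strand break by copying the intact sister chromatid. Nucleases first trim the break to leave single-stranded ends, BRCA1 and its partners bring in BRCA2, and the coated single strand then searches for the matching sequence. The Fanconi anemia pathway deals with crosslinks between the DNA strands: a multi-subunit ubiquitin ligase marks the FANCD2 and FANCI pair, which directs the cutting of the crosslink and hands the resulting break to recombination. Many of these genes are transcribed most strongly in S phase, when a sister chromatid is present. Inherited loss of BRCA1, BRCA2, PALB2 or ATM predisposes to cancer, and inherited loss of most Fanconi genes can cause bone marrow failure.

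Total counts per library ran from 14073065 to 17054364. KRT19 itself (ENSG00000171345, chromosome 17: 41523617 to 41528308, minus strand, hg38) checked the labels: EV libraries 1 to 4 had 1, 3, 2 and 5 reads, and KRT19 libraries 1 to 4 had 5147, 4353, 4923 and 4696. Several label checks went against A549. CDKN2A and MTAP, which lie in a region deleted from A549, had 1328 to 1824 and 653 to 870 reads in every library, while EPCAM and ALDH1A1 never passed 3 reads. The text therefore speaks of cells labelled A549. The extraction note names retina, but the rod gene SAG was at 0 in every library and 5 of 10 retina markers never passed 3 reads, with a summed level of 3.0 to 4.16 CPM (read counts scaled to the size of the library) in EV and 2.64 to 4.41 CPM in KRT19. Of the lung epithelium markers, 4 of 7 were at 0 in every library (summed level 0.304 to 0.588 CPM in EV and 0.302 to 0.569 CPM in KRT19). The summed fibroblast markers were at 2.86 to 3.56 and 2.18 to 3.98 CPM, and the summed immune markers at 0 to 0.487 and 0.331 to 0.724 CPM, in EV and KRT19 respectively. The 5 endothelial markers, none of them at 0 in every library, summed to 2.89 to 3.47 CPM in EV and 2.28 to 2.78 CPM in KRT19 without overlap, and their part in the results below was not tested. Replicate 3 of each group stood apart from the other libraries. GC content and transcript length accounted for 17.4% of the gene-to-gene deviation of KRT19 replicate 3 and 13.3% of that of EV replicate 3, against 0.180% to 5.80% in the other 6 libraries, so values are also given without these 2 libraries.

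Tested by quasi-likelihood in edgeR, with Benjamini-Hochberg adjustment over all genes, 0 of the 35 repair genes reached an adjusted p under 0.05. The smallest adjusted p was 0.666, for BARD1, and DESeq2 and limma-voom also called none. Among all genes tested KRT19 alone passed in edgeR (1 gene, 0.00684%), against 5 genes with DESeq2 and 8 with limma-voom. At an unadjusted p under 0.05, the threshold stated in the study's methods, 7 of the 35 genes (20%) were higher in KRT19 and 0 were lower: BARD1, BLM, BRCA1, FANCI, XRCC2, RBBP8 and RAD51AP1. The background was 5.41% of all genes tested in either direction, 2.85% higher and 2.56% lower. Because the 35 genes were chosen with earlier results of these data known, this comparison is only a description. The differences were small, from 11.2% for FANCI to 21.0% for BARD1. Of the 35 genes, 27 had a fitted fold change above 0, against 52.2% of all genes, and the median log2 fold change was 0.083 beside 0.0051 over all genes tested. In bulk RNA a change in the share of cells that express a gene and a change in the amount of RNA per cell cannot be told apart.

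**Figure D1:**
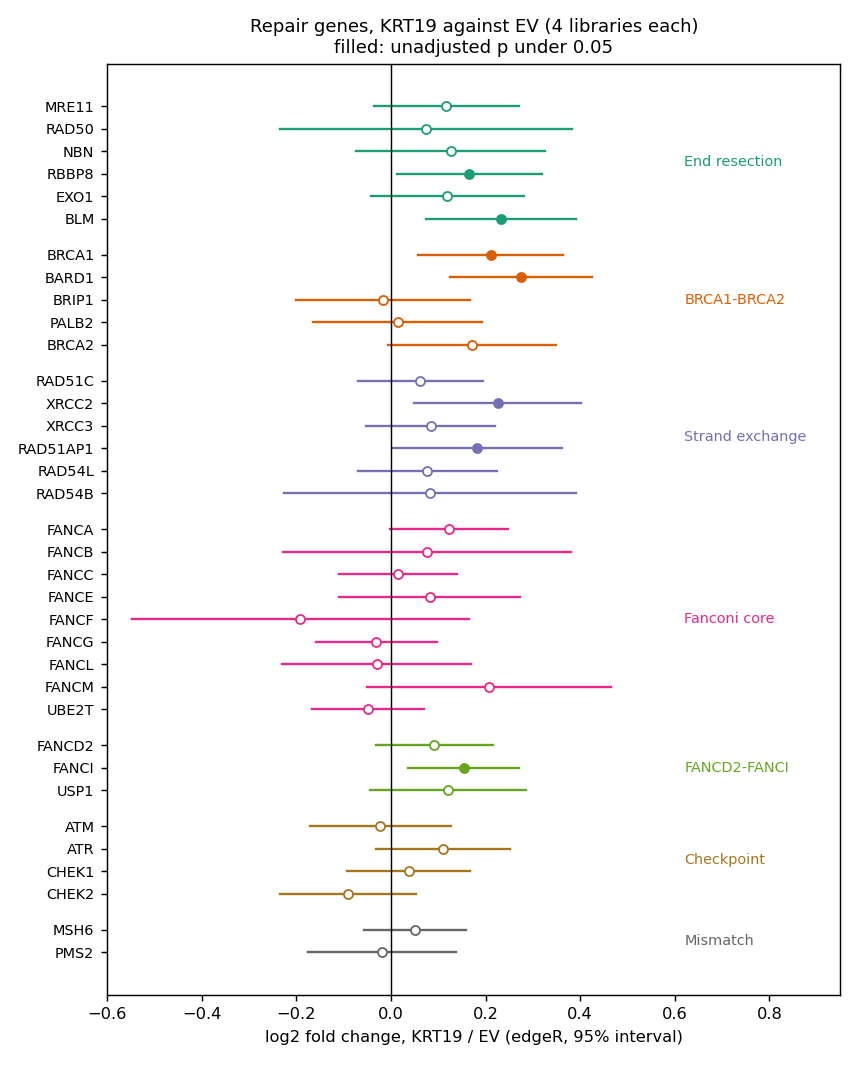
Log2 fold change of KRT19 over EV for each of the 35 repair genes (x axis, log2 scale, edgeR fit on 4 libraries per group, bars are 95% intervals), grouped by role. Filled points mark the 7 genes at an unadjusted p under 0.05, all to the right of 0, and 27 of the 35 points lie above 0.

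The unadjusted calls of BLM, BRCA1, XRCC2, RBBP8 and RAD51AP1 were lost without the replicate 3 libraries. EV replicate 3 was the lowest of the 8 libraries for 15 of the 35 genes and for all 7 of the genes named above, and KRT19 replicate 3 was the highest for 18 of the 35 and for 6 of the 7. With both libraries left out, 3 genes were higher at an unadjusted p under 0.05 (BARD1, FANCI and FANCA), beside 3.99% of all genes in that fit, and 2 were lower (ATM and FANCF), beside 4.18%. The median log2 fold change was then 0.032 beside 0.0015 over all genes, and 22 of the 35 values were above 0. BARD1 and FANCI kept an unadjusted p under 0.05 in all 19 alternative fits, BLM and BRCA1 in 18, XRCC2 in 16, RBBP8 in 14 and RAD51AP1 in 9.

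**Figure D2:**
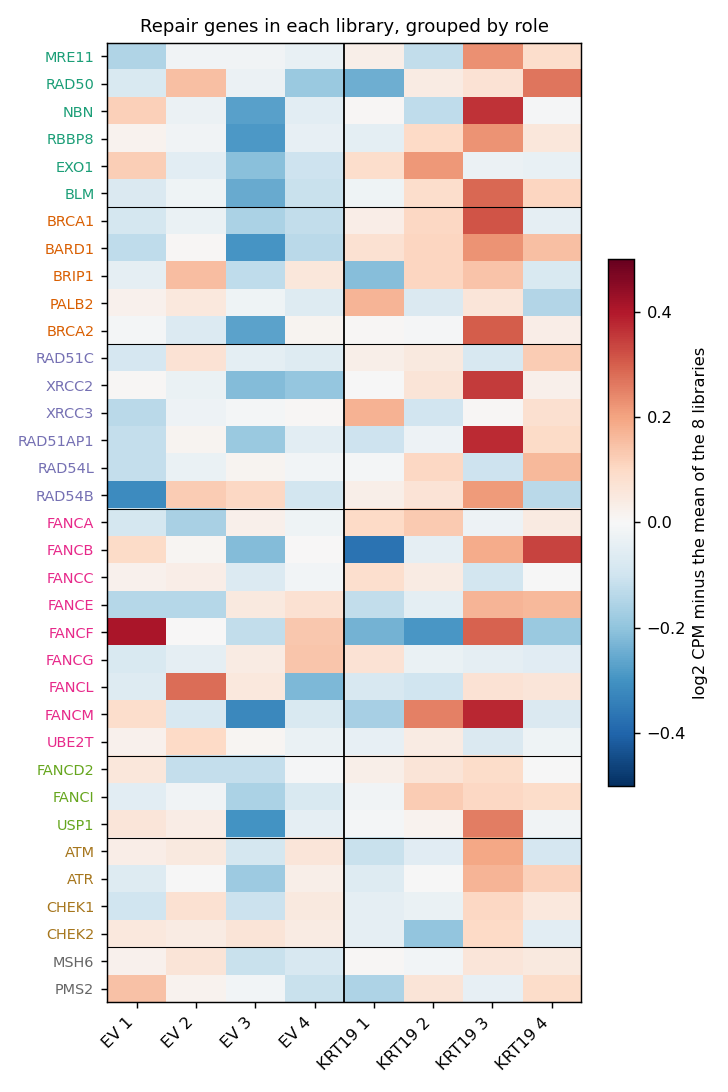
Level of each of the 35 repair genes (rows, grouped by role) in each of the 8 libraries (columns), as log2 CPM minus the mean of the 8 libraries (color scale, log2 units). KRT19 replicate 3 holds the highest value of 18 genes and EV replicate 3 the lowest of 15.

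The start regions of the repair genes were read to show what sequence they share, since many DNA repair genes are known targets of E2F factors, which drive transcription at the start of S phase. A window of 250 bases before to 50 bases after the RefSeq start was at hand for 32 of the 35 genes (GRCh38.p14; NBN, RAD54B and FANCI had none in the table used). The search was chosen after the expression values had been seen. The E2F letters TTTCCCGC, TTTCGCGC, TTTGCCGC or TTTGGCGC stood on either strand in 7 of the 32 genes (21.9%), against 3.31% of 35116 windows of the same length and 3.99% of the 27305 genes with a window. The following stretches of 30 bases hold these matches, in capitals, and are written 5′ to 3′ on the strand of the gene; a match on the opposite strand appears as its reverse complement.
XRCC2, chr7:152676102-152676131, minus strand: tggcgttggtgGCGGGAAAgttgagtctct
EXO1, chr1:241848197-241848226, plus strand: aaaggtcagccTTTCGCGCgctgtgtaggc
FANCD2, chr3:10026424-10026453, plus strand: cgtcgggcctgGCGGGAAAgtcgaaaacta
MSH6, chr2:47783137-47783166, plus strand: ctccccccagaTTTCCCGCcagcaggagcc
FANCC, upstream match, chr9:95317863-95317892, minus strand: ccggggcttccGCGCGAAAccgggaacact
FANCC, match nearer the start, chr9:95317737-95317766, minus strand: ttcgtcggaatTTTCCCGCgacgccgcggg
FANCA, chr16:89816801-89816830, minus strand: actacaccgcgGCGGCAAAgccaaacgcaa
PMS2, chr7:6009131-6009160, minus strand: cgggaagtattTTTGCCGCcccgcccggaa

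Of the 7 genes at an unadjusted p under 0.05, all but FANCI had a window, and among these only XRCC2 held the E2F letters, 22 bases past its start. The other 6 genes with a match (EXO1, FANCD2, MSH6, FANCC, FANCA and PMS2) had log2 fold changes from -0.019 to 0.12. The CCAAT box stood in 18 of 32 genes (34.6% of all windows, 39.7% of genes), the cyclic AMP element TGACGTCA in 4 (EXO1, PMS2, RAD51C and XRCC2, against 1.85% of windows and 2.25% of genes) and the NRF1 palindrome in RBBP8 alone (1.24% of windows, 1.52% of genes). The ETS letters CCGGAAGTG stood in 2 genes (2.36% of windows, 2.81% of genes) and the cell cycle homology region TTTGAA in 5, or 15.6% (15.2% of windows, 18.2% of genes), all searched on both strands. No match of one motif overlapped a match of another in these genes. The stretches below belong to genes at an unadjusted p under 0.05, with CCAAT or its reverse complement, the NRF1 palindrome or the cyclic AMP element in capitals. BARD1, with the lowest p, held none of these letters in the 100 bases before its start and is shown in lower case throughout.
BARD1, chr2:214809684-214809783, minus strand: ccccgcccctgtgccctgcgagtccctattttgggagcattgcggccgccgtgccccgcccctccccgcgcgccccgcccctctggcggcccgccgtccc
BLM, chr15:90717246-90717345, plus strand: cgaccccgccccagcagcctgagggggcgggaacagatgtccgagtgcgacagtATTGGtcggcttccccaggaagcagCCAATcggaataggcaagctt
BRCA1, chr17:43125522-43125551, minus strand: cagactgggtggCCAATccagagccccgag
RAD51AP1, chr12:4538808-4538837, plus strand: tggctggtgatgATTGGacgactggtaaca
RBBP8, chr18:22933811-22933840, plus strand: agcccgccccGCGCATGCGCcgactgcggc
XRCC2, chr7:152676258-152676287, minus strand: acgcggaagtcTGACGTCAcaggaactggg

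The break-end resection genes trim the broken end. All 6 had a fitted fold change above 0, 2 of the 6 at an unadjusted p under 0.05, and their median log2 fold change was 0.12. Over all genes tested, 52.2% were above 0 and 2.85% were higher at an unadjusted p under 0.05. BLM (ENSG00000197299, chromosome 15: 90717327 to 90816165, plus strand), the helicase lost in Bloom syndrome, which unwinds DNA for long-range resection and dissolves recombination intermediates, was at 29.2, 30.2, 25.8 and 28.4 CPM in EV libraries 1 to 4 and at 30.3, 32.6, 37.5 and 33.1 CPM in KRT19 libraries 1 to 4. The highest EV library lay just under the lowest KRT19 library, so the groups did not overlap. The fitted log2 fold change was 0.23 ± 0.075 (SE), which is 17.5% (95% interval 5.29% to 31.2%), with an unadjusted p of 0.00651 and an adjusted p of 0.868 in edgeR. An exact two-sided permutation test over the 70 assignments of the libraries gave p = 0.0286, the smallest this design allows. Without both replicate 3 libraries the log2 fold change of BLM was 0.13.

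RBBP8 (ENSG00000101773, chromosome 18: 22798261 to 23026488, plus strand), which encodes CtIP, the factor that starts resection together with the MRE11 nuclease, was at 59.2, 57.8, 47.9 and 56.9 CPM in EV and 56.7, 62.7, 68.5 and 60.9 CPM in KRT19. KRT19 replicate 1 lay below 3 of the EV libraries, so the groups overlapped. This gave a log2 fold change of 0.17 ± 0.073, or 12.2% (95% interval 0.831% to 24.8%), with an unadjusted p of 0.0363, an edgeR adjusted p of 0.906 and an exact permutation p of 0.114. It was 0.051 without both replicate 3 libraries. The 3 subunits of the MRE11, RAD50 and NBN complex, which holds and cuts the broken end, had log2 fold changes of 0.12 ± 0.073, 0.074 ± 0.15 and 0.13 ± 0.095, and the exonuclease EXO1 0.12 ± 0.076. The intervals of these 4 genes all included 0. With 1 library left out, MRE11 ran from 0.056 (without KRT19 replicate 3) to 0.17, and EXO1 from 0.065 (without KRT19 replicate 2) to 0.18. NBN ran from 44.0 to 57.8 CPM in EV and from 48.7 to 68.3 CPM in KRT19, and its value was -0.053 without both replicate 3 libraries.

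In the BRCA group, 4 of 5 genes had a fold change above 0, 2 at an unadjusted p under 0.05, with a median log2 fold change of 0.17. The shares over all genes tested were 52.2% above 0 and 2.85% higher at that p. BARD1 (ENSG00000138376, chromosome 2: 214725646 to 214809711, minus strand), the obligate partner of BRCA1 in its ubiquitin ligase, was at 27.3, 29.9, 24.3 and 27.1 CPM in EV and 31.4, 32.1, 34.8 and 33.1 CPM in KRT19. Every KRT19 library was above every EV library. The log2 fold change of 0.27 ± 0.071, or 21.0% (95% interval 9.05% to 34.2%), was the largest of the 35 and ranked 27 by p among the 14621 genes tested. The unadjusted p was 0.00123, the edgeR adjusted p 0.666 and the exact permutation p 0.0286. Without both replicate 3 libraries the log2 fold change of BARD1 was 0.19, the lowest over all alternatives.

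BRCA1 (ENSG00000012048, chromosome 17: 43044295 to 43170245, minus strand) was at 40.1, 41.6, 38.1 and 39.1 CPM in EV and 43.6, 45.8, 53.1 and 41.3 CPM in KRT19. Only KRT19 replicate 4 and EV replicate 2 were out of order. BRCA1 had a log2 fold change of 0.21 ± 0.073, or 15.7% (95% interval 4.01% to 28.7%), with an unadjusted p of 0.0102, an edgeR adjusted p of 0.900 and an exact permutation p of 0.0571. It was 0.11 without both replicate 3 libraries. BRCA2, which acts after resection with PALB2, was at 25.7, 24.6, 21.5 and 26.1 CPM in EV and 26.0, 25.7, 31.9 and 26.5 CPM in KRT19, so that apart from the replicate 3 libraries its values all lay between 24.6 and 26.5 CPM. Its log2 fold change of 0.17 ± 0.084 had an unadjusted p of 0.0579 and was 0.032 without both replicate 3 libraries. PALB2, the bridge between BRCA1 and BRCA2, and the helicase BRIP1 had values near 0, at 0.014 ± 0.084 and -0.017 ± 0.087.

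**Figure D3:**
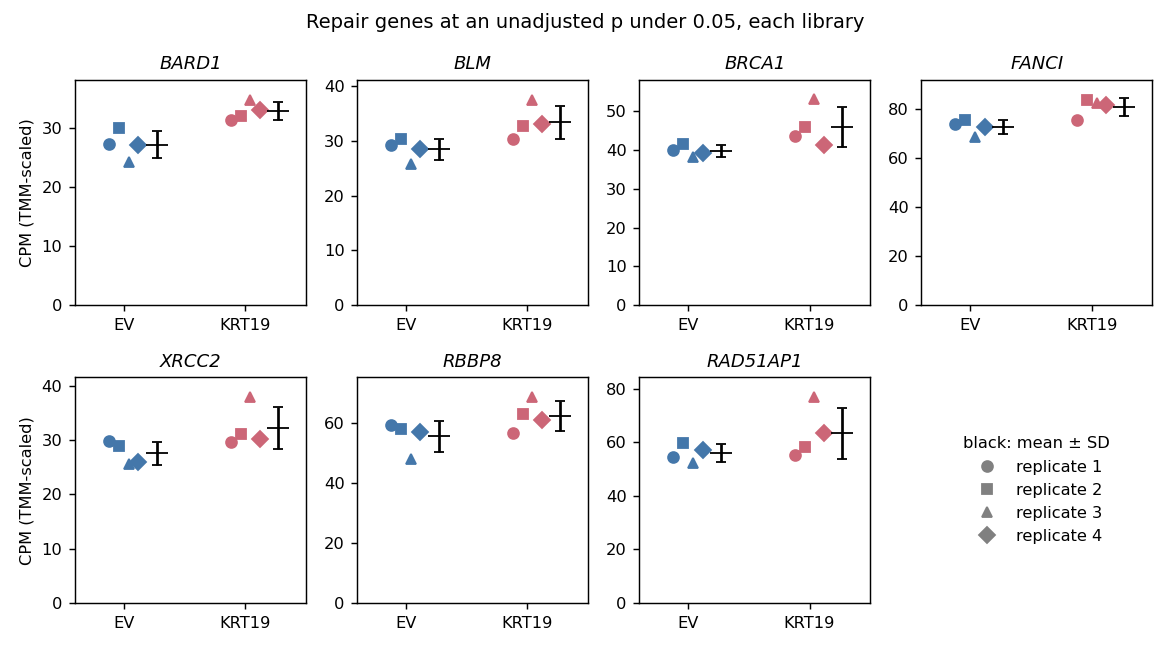
Level in CPM (y axis, starting at 0) of the 7 repair genes at an unadjusted p under 0.05, 1 panel per gene, with each EV and KRT19 library as a point and the group mean ± SD in black (n = 4). The groups are apart for BARD1, BLM and FANCI and overlap for the other 4, and KRT19 replicate 3 is the highest point in 6 of the 7 panels.

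The strand exchange genes help the broken end invade the matching duplex. All 6 had a fold change above 0, 2 of them at an unadjusted p under 0.05, with a median log2 fold change of 0.084. Among all genes tested, 52.2% were above 0 and 2.85% were higher at that p. XRCC2 (ENSG00000196584, chromosome 7: 152644779 to 152676165, minus strand), which acts in strand exchange, was at 29.8, 28.98, 25.6 and 26.0 CPM in EV and 29.6, 31.1, 37.8 and 30.2 CPM in KRT19. EV replicate 1 lay just above KRT19 replicate 1, so the groups overlapped there. The log2 fold change was 0.23 ± 0.083, or 16.9% (95% interval 3.5% to 32.1%), with an unadjusted p of 0.0150, an edgeR adjusted p of 0.906 and an exact permutation p of 0.0571. It was 0.10 without both replicate 3 libraries.

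RAD51AP1 (ENSG00000111247, chromosome 12: 4538798 to 4560048, plus strand), which stimulates strand invasion, was at 54.5, 59.9, 52.1 and 57.2 CPM in EV and 55.1, 58.3, 76.8 and 63.4 CPM in KRT19. A single library, KRT19 replicate 3, stood well above the rest. The log2 fold change of 0.18 ± 0.085 had an unadjusted p of 0.0476, an edgeR adjusted p of 0.906 and an exact permutation p of 0.171, and was 0.042 without both replicate 3 libraries. RAD51C and XRCC3, which form a complex, had log2 fold changes of 0.062 ± 0.063 and 0.084 ± 0.064. The translocases RAD54L and RAD54B, which help strand invasion and move along duplex DNA, were at 0.076 ± 0.070 and 0.083 ± 0.15. None of these 4 passed an unadjusted p of 0.05, and all had intervals that included 0.

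The Fanconi core genes encode the crosslink-sensing ligase and its E2 enzyme. Here 5 of 9 had a fold change above 0 and 4 below, none at an unadjusted p under 0.05, with a median log2 fold change of 0.015. FANCA, a core scaffold subunit, was at 59.4, 56.4, 64.3 and 62.2 CPM in EV and 67.7, 69.1, 62.0 and 65.2 CPM in KRT19, and KRT19 replicate 3 was the only KRT19 library inside the EV range. Its log2 fold change was 0.12 ± 0.059 (unadjusted p = 0.0540), and it was 0.18 with an unadjusted p under 0.05 without both replicate 3 libraries. FANCM, the translocase that anchors the core to damaged DNA, was at 13.3, 11.9, 10.0 and 11.9 CPM in EV and 11.2, 14.9, 16.3 and 11.9 CPM in KRT19, with a log2 fold change of 0.21 ± 0.12 (unadjusted p = 0.109). KRT19 replicates 2 and 3 lay above every EV library and the other KRT19 libraries within the EV range, and the log2 fold change was 0.032 without both replicate 3 libraries.

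Apart from FANCF, the other core subunits lay nearer to 0. FANCL, the catalytic ubiquitin ligase subunit, was at -0.030 ± 0.095, UBE2T, the E2 enzyme that works with it, at -0.049 ± 0.056, FANCG at -0.031 ± 0.060 and FANCC at 0.015 ± 0.059 on the log2 scale. UBE2T was the most even of these, at 51.6 to 56.6 CPM in EV and 50.2 to 54.3 CPM in KRT19, and its 95% interval ran from -10.9% to 4.89%. FANCE, which contacts FANCD2, was at 0.082 ± 0.090. FANCB and FANCF had few reads (80 to 121 and 45 to 82 per library), and their fold changes of 0.076 ± 0.14 and -0.19 ± 0.17 were correspondingly uncertain. FANCF had the lowest fold change of the 35, and it was -0.42 without both replicate 3 libraries.

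The substrate pair of the core ligase and its deubiquitinase all had fold changes above 0, with a median of 0.12. Of all genes tested, 52.2% were above 0. FANCI (ENSG00000140525, chromosome 15: 89243949 to 89317261, plus strand) was at 73.9, 75.8, 68.7 and 72.8 CPM in EV and 75.9, 83.8, 82.6 and 81.8 CPM in KRT19. The groups did not overlap, although EV replicate 2 and KRT19 replicate 1 nearly touched. The log2 fold change was 0.15 ± 0.055, or 11.2% (95% interval 2.59% to 20.6%), with an unadjusted p of 0.0129, an edgeR adjusted p of 0.906 and an exact permutation p of 0.0286. It was 0.12 without both replicate 3 libraries. BARD1, BLM and FANCI were the 3 of 35 genes whose groups did not overlap, all higher in KRT19, where the background over all genes tested was 1.63% higher and 1.81% lower.

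FANCD2, the partner of FANCI, was at 55.0, 48.6, 48.7 and 52.6 CPM in EV and 53.9, 55.3, 56.3 and 52.7 CPM in KRT19, with a log2 fold change of 0.092 ± 0.059 (unadjusted p = 0.136). Only EV replicate 1 reached into the KRT19 range. USP1, which removes ubiquitin from the pair, was at 114, 112, 88.4 and 105 CPM in EV and 108, 110, 130 and 108 CPM in KRT19, with a log2 fold change of 0.12 ± 0.078. EV replicate 3 was its lowest library and KRT19 replicate 3 its highest, and without both the value was -0.022.

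The checkpoint kinases, which sense the damage and hold the cell cycle, showed 2 genes above 0 and 2 below, none at an unadjusted p under 0.05, with a median of 0.0075. ATR, activated by single-stranded DNA, and its target CHEK1 were at 0.11 ± 0.067 and 0.037 ± 0.062. ATR was at 0.029 without both replicate 3 libraries. ATM, activated by double-strand breaks, and its target CHEK2 were at -0.022 ± 0.070 and -0.090 ± 0.068, and ATM was at -0.13 without both replicate 3 libraries. CHEK2 was at 30.5, 30.2, 30.7 and 30.2 CPM in EV and 28.5, 25.7, 31.6 and 28.4 CPM in KRT19, so that 3 of the 4 KRT19 libraries lay below all EV libraries. Without KRT19 replicate 3 its log2 fold change was -0.14, at an unadjusted p under 0.05. The mismatch repair genes MSH6, which recognizes mispaired bases, and PMS2, the endonuclease subunit that acts after recognition, were at 0.051 ± 0.051 and -0.019 ± 0.074, both with intervals that included 0.

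**Figure D4:**
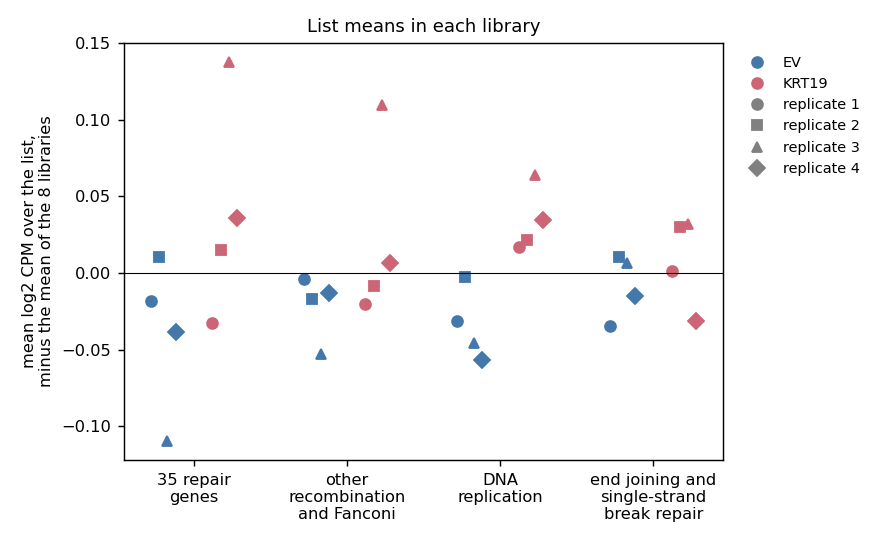
Mean over the genes of each list of log2 CPM minus the 8-library mean (y axis, log2 units), for each EV and KRT19 library (points). For the 35 repair genes the libraries overlap between groups, with KRT19 replicate 3 highest at 0.14 and EV replicate 3 lowest at -0.11. For the replication list they do not.

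Averaged over the 35 genes, the deviation from the 8-library mean in EV libraries 1 to 4 was -0.019, 0.011, -0.11 and -0.038, and in KRT19 libraries 1 to 4 it was -0.033, 0.015, 0.14 and 0.036 (log2 units). The groups overlapped, and KRT19 replicate 1 lay below EV replicates 1 and 2. The mean difference of 0.078 was 0.045 without KRT19 replicate 3 and 0.021 without both replicate 3 libraries. By role, the mean difference was 0.14 for resection, 0.13 for the BRCA group, 0.12 for strand exchange, 0.12 for the FANCD2 group, 0.018 for the Fanconi core, 0.0059 for the kinases and 0.016 for mismatch repair. Without both replicate 3 libraries these differences were 0.058, 0.041, 0.093, 0.049, -0.027, -0.065 and -0.0023 in the same order, so the Fanconi core, the kinases and mismatch repair turned below 0. The Fanconi core (-0.010) and the kinases (-0.040) were also below 0 without KRT19 replicate 3 alone. By role, only the strand exchange means did not overlap between the EV and KRT19 libraries. Whether the roles differed from each other was not tested.

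Related genes outside the 35 were read from fixed lists. Of 57 other recombination, Fanconi and mismatch repair genes 56 were tested. In this list 39 had a fold change above 0, 4 were higher and 0 lower at an unadjusted p under 0.05, and the median log2 fold change was 0.029. The 4 were 7.14% of the list, near the 5.41% of all genes tested in either direction (2.85% higher). Of all genes, 52.2% were above 0. Groups did not overlap for 3 genes of the list, all higher, beside 1.63% of all genes higher and 1.81% lower. TOPBP1, which activates ATR, was at 103, 105, 93.0 and 106 CPM in EV and 113, 111, 122 and 114 CPM in KRT19, without overlap (log2 fold change 0.18 ± 0.057, unadjusted p = 0.00573, edgeR adjusted p = 0.868). DNA2, a resection nuclease that works with BLM, was at 25.6, 25.6, 22.5 and 24.5 CPM in EV and 26.3, 26.9, 34.8 and 27.1 CPM in KRT19 (0.23 ± 0.088, unadjusted p = 0.0167). DNA2 also did not overlap, but KRT19 replicate 3 stood far above the other libraries, and its log2 fold change was 0.13 without that library and 0.087 without both replicate 3 libraries. That of TOPBP1 was 0.11 without both.

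End joining, the route that rejoins breaks without a template, together with single-strand break repair, had 16 of 17 genes tested, 8 with a fold change above 0 and 8 below. None of these passed an unadjusted p of 0.05 in edgeR, DESeq2 or limma-voom, and the median log2 fold change was -0.00050. Of 36 DNA replication genes, 34 had a fold change above 0, with 3 higher and 0 lower at an unadjusted p under 0.05 and a median log2 fold change of 0.075. The 3 were 8.33% of the list, beside 5.41% of all genes tested, and 52.2% of all genes were above 0. With upper-quartile scaling or the replicate block the count was 0. Groups did not overlap for 3 genes of the list, all higher, beside 1.63% of all genes higher and 1.81% lower. The helicase subunit genes MCM4 (0.095 ± 0.043, unadjusted p = 0.0401) and MCM3 (0.10 ± 0.048, unadjusted p = 0.0491) did not overlap between groups, although for MCM3 the nearest EV and KRT19 libraries were both at 204 CPM. No gene of any of these lists passed the adjusted threshold in edgeR.

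Per kilobase of gene length, the levels of the 35 genes spanned from 32.0 ± 1.22 CPM per kb for UBE2T to 0.441 ± 0.0522 CPM per kb for RAD50 (mean ± SD of all 8 libraries). UBE2T was followed by USP1 at 25.6 ± 2.66 and RAD51AP1 at 23.3 ± 3.02, which did not differ beyond their spread, then by FANCG at 17.4 ± 0.929 and MSH6 at 15.1 ± 0.674 CPM per kb. Most of the remaining genes formed a continuous series: of the 34 neighboring pairs in the order, 9 lay farther apart than the sum of their SDs. BARD1, MRE11, BRCA1 and BLM were next to each other at 4.94, 4.69, 4.66 and 4.63 CPM per kb, and no neighbors among these 4 differed beyond their spread. The lowest were FANCF at 1.34 ± 0.247, RAD54B at 0.784 ± 0.0893 and RAD50.

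**Figure D5:**
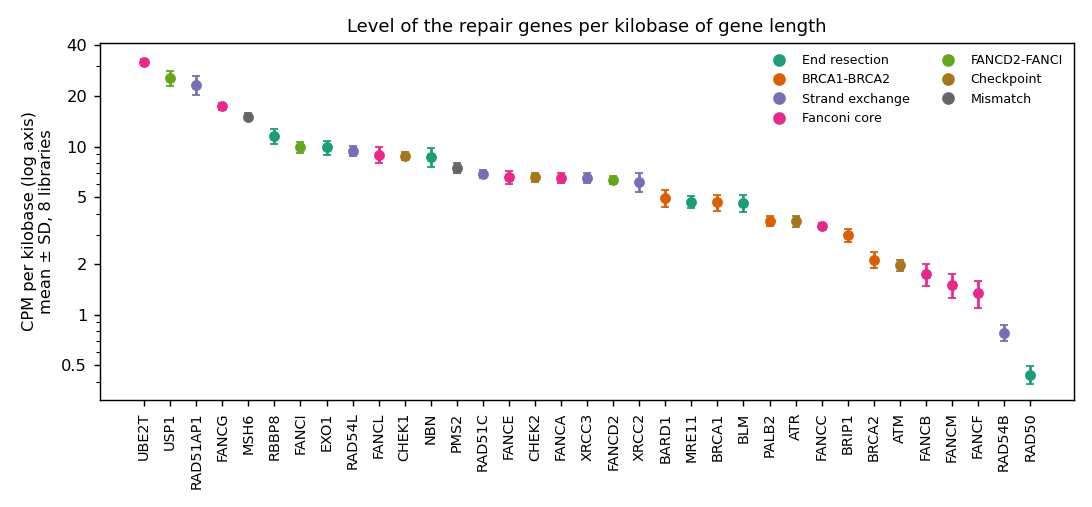
Level of the 35 repair genes in CPM per kilobase of gene length (y axis, log scale, mean ± SD of the 8 libraries), ordered from UBE2T at 32.0 to RAD50 at 0.441. Most neighbors lie within each other's spread.

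Sequence shared with other genes limits some of these levels. Of the 75-base words of its transcripts, RAD50 shared 76.7% with AC116366.3 and the antisense gene TH2LCRR, XRCC3 64.5% with KLC1 on the opposite strand, and RAD54B 55.0% with FSBP. FANCA shared 17.2% with ZNF276 and PMS2 14.7% with its pseudogenes. The library kit named in the labels does not mark strand, so reads from these overlaps cannot be assigned with certainty. In all, 9 of the 35 genes shared over 10% of their words. BARD1, RAD51AP1 and 11 others shared none, BLM, RBBP8, BRCA1 and XRCC2 under 0.5%, and FANCI 4.29%, with POLG on the opposite strand.

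GC content of the longest transcript ran from 36.1% (RAD51AP1) to 63.8% (XRCC3), with a median of 41.2%. Across the 35 genes, the log2 fold change had a Pearson correlation of -0.272 with GC content, 0.249 with log gene length and 0.0450 with level, all computed from the same 8 libraries and given as descriptions. With the GC and length trend of each library removed, 8 of the 35 genes were higher at an unadjusted p under 0.05 (the 7 named above and FANCA), beside 4.65% of all genes in that fit, and 6 did not overlap between groups, all higher, beside 2.72% of all genes higher and 2.39% lower.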

How the data were processed

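RNA-seq was measured in 8 libraries of cells labelled A549, 4 EV and 4 KRT19, grouped by sample title. Raw counts by gene (hg38, Ensembl identifiers) were deposited as a single table. The submitters' processing notes name Bowtie 0.12.2, featureCounts 1.5.0-p3 and DESeq2, and the handling of strand and multiply aligned reads is not given in the sources used here. The 35 genes and all lists were chosen with earlier results of these data known. Columns of other samples numbered 0.

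The main fit used edgeR 4.0.16 under R 4.3.3. Genes were kept by filterByExpr (14621, holding at least 99.8% of counts per library) and libraries were scaled by TMM. KRT19 was compared with EV by the two-sided quasi-likelihood test with group alone. The Benjamini-Hochberg adjustment ran over all genes tested, with a threshold of 0.05. The SE is the fold change divided by the root of F, and intervals are at 95%. CPM is TMM-scaled, and CPM per kb divides it by the gene length in the table. Log2 CPM used a prior count of 2. Single genes were also tested by exact permutation over 70 assignments (smallest p 0.0286). The biological coefficient of variation was 6.86%. The labels do not say that replicates came from separate cultures, so p-values measure only the spread between these libraries, which may be technical. Replicate pairs all differed by more than counting noise (chi-square per degree of freedom 2.78 to 13.6).

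Of the 35 genes all were named. From the lists of other recombination, end joining and replication genes, up to 2 genes per direction were named, with an unadjusted p under 0.05 and groups that did not overlap, lowest p first. Alternatives were DESeq2 size factors or upper-quartile scaling in edgeR, DESeq2 1.42.0, limma 3.58.1 (voom with quality weights), a looser filter (at least 1 read) and a stricter one (5 CPM in 4 libraries), the replicate number as a block, KRT19 and mitochondrial genes out of library sizes, removal of a GC and length trend (natural splines with 5 degrees of freedom, GC of the longest GENCODE 29 transcript, 14614 genes) and each library left out in turn. Added after the data were seen were the GC and length trend with the block and leaving out replicate 3 of both groups. Start regions came from RefSeq (GRCh38.p14). Depth of 14073065 to 17054364 reads puts 3 reads at 0.176 to 0.213 CPM. Scripts were tested on simulated data.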

Additional observations from a re-analysis of the deposited data

Results flagged for a closer look

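Of 102 groups of 4 libraries examined (each named gene and the mean of each list, in EV and in KRT19), 5 had a library whose gap to its nearest neighbor exceeded Dixon's critical share of the group's range, and chance alone flags about 1 in 20 groups, or 5.1 of 102. In 4 of these 5 the library was KRT19 replicate 3. BRCA2 was at 5.00 log2 CPM there against 4.69 to 4.73 in the other KRT19 libraries (gap 0.871 of the range). USP1 was at 7.02 against 6.75 to 6.78 log2 CPM (0.878) and the resection nuclease DNA2 at 5.13 against 4.72 to 4.77 log2 CPM (0.892). KRT19 was itself lower in the same library, at 8.17 against 8.27 to 8.28 log2 CPM (0.949). MRE11 was at 5.02 log2 CPM in EV replicate 1 against 5.13 to 5.16 in the other EV libraries (0.837). The cause of these gaps was not tested.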

How the results depend on the processing

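None of the 35 repair genes passed the adjusted threshold under any of the 19 alternatives, and KRT19 kept its call and direction in all of them. The direction held for 23 of the 35 genes (20 higher, 3 lower) under every alternative in which they were tested. RAD50, RAD54B and FANCF did not pass the stricter filter. The number of repair genes at an unadjusted p under 0.05 and higher in KRT19 was 3 rather than 7 with replicate 3 of both groups left out, and 5 to 10 with 1 library left out, where the share of all genes higher ran from 2.18% (without EV replicate 4) to 4.87% (without KRT19 replicate 1, the fit with 10). The number whose groups did not overlap was 3 as reported, 1 with upper-quartile scaling, 6 with the GC and length trend removed, 6 with that trend removed and the replicate block, 8 without both replicate 3 libraries (5 higher, 3 lower) and 3 to 6 with 1 library left out, all higher except without KRT19 replicate 3 (4 higher, 2 lower). In that fit CHEK2 was also lower at an unadjusted p under 0.05. Over all genes the share higher without overlap moved as well, from 1.63% to 1.22% with upper-quartile scaling, 2.72% in both fits with the trend removed, 6.85% without both replicate 3 libraries (6.45% lower) and 2.54% to 3.91% with 1 library left out (2.86% to 3.93% lower). Genes of the whole table past the adjusted threshold numbered 1 as reported, 5 with DESeq2, 8 with limma-voom, 71 under a looser filter, 6 with the GC and length trend removed, 4 with the block added, 8 without both replicate 3 libraries and 1 to 5 with 1 library left out. The median log2 fold change of the 35 was 0.032 without both replicate 3 libraries and, with 1 library left out, ran from 0.056 (without KRT19 replicate 3) to 0.11 (without KRT19 replicate 1).

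Replicate numbers gave no pairing: deviations from the group means correlated between libraries of equal number at -0.111, -0.0239, -0.159 and 0.0567. With the replicate block, 5 repair genes were at an unadjusted p under 0.05, beside 451 of all genes against 791 without it.

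The share of all genes at an unadjusted p under 0.05 also moved, from 5.41% to 5.44% with upper-quartile scaling, 9.14% with limma-voom, 3.08% with the replicate block, 5.15% under a looser filter, 8.38% with the GC and length trend removed, 6.67% with the trend and the block, 8.17% without both replicate 3 libraries and 4.19% to 8.28% with 1 library left out. The count of other recombination genes at an unadjusted p under 0.05 was 4 as reported, 9 with the GC and length trend removed, 7 with the looser filter, 7 with the trend and the replicate block and 1 to 7 with 1 library left out (1 without EV replicate 3, 2 without KRT19 replicate 3, 7 without EV replicate 2). For replication genes it was 3 as reported, 0 with upper-quartile scaling, 15 with limma-voom, 0 with the replicate block, 9 with the GC and length trend removed, 1 with the looser filter, 8 with the trend and the block, 8 without both replicate 3 libraries and 0 to 7 with 1 library left out (0 without EV replicate 4 or KRT19 replicate 4, 7 without KRT19 replicate 3). For end joining genes it was 0, and 0 to 1 with 1 library left out.

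Some single genes reversed. Without both replicate 3 libraries, log2 fold changes were -0.053 for NBN, -0.035 for FANCB, -0.022 for USP1, -0.021 for CHEK1 and -0.0095 for PALB2. With limma-voom PALB2 was at -0.034, FANCL at 0.028 and PMS2 at 0.046. PALB2 was at -5.51e-05 with the GC and length trend removed and at -0.0057 with the block added. With 1 library left out the ranges that crossed 0 were -0.0072 to 0.16 for RAD50, -0.072 to 0.048 for BRIP1, -0.045 to 0.062 for PALB2, -0.031 to 0.20 for FANCB, -0.011 to 0.048 for FANCC, -0.062 to 0.012 for FANCG, -0.11 to 0.065 for FANCL, -0.098 to 0.012 for ATM and -0.059 to 0.027 for PMS2. The cause was not tested for any of these. FANCF, FANCB, RAD50 and RAD54B, with at most 121 reads per library, had SEs of 0.14 to 0.17, and for them depth limits what can be seen.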
